A study of Mus musculus with 10 samples.

Results

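The 5 genes described here are Clvs2, Sardhos, Yam1, Efcab7 and Tmem53, which were picked by name from the genes furthest above control in cortical neuron cultures given Gata1. Each of them has 1 row in the mRNA tables, so 5 rows of 5 symbols were found among 40904 gene symbols, and all 5 passed the minimum mean of 1 FPKM set for a comparison (12229 named genes did; predicted genes, clones and small RNA genes are not counted as named). FPKM is the number of sequenced fragments scaled to transcript length and to the total of mapped fragments, so it can be compared between genes. The values that chose these genes are the same values printed below, and they are given as a description without a test. Since the genes were chosen for large differences, their standing above genes of a like mean, family or list is no separate finding.

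The cultures were cortical neurons of ICR mouse embryos at embryonic day 14, collected at day 11 in vitro. One group received an adeno-associated virus labelled AAV-Control and the other a virus labelled AAV-Gata1, which delivers the zinc finger transcription factor of red cell and platelet development; the promoter of the vector and the dose are not in the labels. Each group is 1 mRNA library, whose title reads total RNA, and 1 small RNA library, so no difference below has a replicate check. The series also lists H3K4me3, H3K27me3 and input DNA samples, which were not analysed here. The delivered gene, Gata1, read 0 FPKM in the AAV-Control library and 2.07 FPKM in the AAV-Gata1 library.

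The 5 genes have little known in common. Clvs2 encodes clavesin 2, a lipid-binding protein of the Sec14 family found on clathrin-coated vesicles of neurons, where clavesins act on late endosomes and lysosomes. Efcab7 encodes an EF-hand protein that, together with Iqce, holds the Evc and Evc2 proteins at the base of the primary cilium, where they pass on the Hedgehog signal from Smoothened. Tmem53 encodes a membrane protein of the nuclear envelope that restrains BMP signalling through SMAD proteins in bone-forming cells. Sardhos is the opposite-strand transcript of Sardh, the gene of the mitochondrial enzyme that oxidises sarcosine, and the symbol Yam1 stands for a long noncoding RNA described in muscle as a target of the transcription factor YY1; which sequence its row counts is taken up with its values.

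Promoter windows were matched for Clvs2 and Tmem53. They reach from 250 bases before to 50 bases after an annotated start, from RefSeq on GRCm38.p6, and they are shown because GATA factors bind DNA at the letters GATA; capitals mark GATA, or TATC where the other strand reads GATA. The Clvs2 window is chr10:33624635-33624934 on the minus strand, and the first of 2 Tmem53 windows is chr4:117251701-117252000 on the plus strand.
Clvs2: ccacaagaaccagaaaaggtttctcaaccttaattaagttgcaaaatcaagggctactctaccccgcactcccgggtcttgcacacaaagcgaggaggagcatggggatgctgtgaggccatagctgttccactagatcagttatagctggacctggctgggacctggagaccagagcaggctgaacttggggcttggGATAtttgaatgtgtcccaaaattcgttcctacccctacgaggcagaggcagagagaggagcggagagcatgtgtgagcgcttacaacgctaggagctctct
Tmem53: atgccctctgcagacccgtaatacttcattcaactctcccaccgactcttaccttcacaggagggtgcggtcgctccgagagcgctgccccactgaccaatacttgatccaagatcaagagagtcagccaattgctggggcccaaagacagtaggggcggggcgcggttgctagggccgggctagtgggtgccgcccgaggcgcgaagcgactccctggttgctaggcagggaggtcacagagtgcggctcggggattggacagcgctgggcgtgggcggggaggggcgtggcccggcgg
The Clvs2 window holds GATA 1 time, at base 199 of the window, and both Tmem53 windows hold it 0 times. Among 32841 such windows of all genes, 57.9% hold GATA on at least 1 strand. The longer word that GATA1 is known to prefer, GATA with A or T before it and A or G after it, searched on both strands, is in none of these 3 windows and in 29.8% of all windows. Every match of the longer word is also a match of GATA. These are matches of letters only. The windows also differ in base composition: the printed Tmem53 window has 23 CpG dinucleotides and 65.0% G and C, above 81.7% of all windows in G and C, while the Clvs2 window has 8 CpG and 52.7%, beside medians of 7 and 52.7% over all windows.

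Clvs2 had the largest proportional difference of the 5. It stood at 1.80 FPKM in the AAV-Control library and at 4.85 FPKM in the AAV-Gata1 library, a ratio of 2.70. On the log2 scale with 1 FPKM added to both values, which is the scale of every log2 ratio below and which shrinks the differences of low genes, this is 1.06. The AAV-Gata1 library was the high one, and the gene moved from above 5.68% to above 20.4% of named genes. At this low level large ratios are more frequent than at higher levels. Of 2719 other named genes whose mean was within 2-fold of that of Clvs2, 11 were at least 1.5-fold higher in the AAV-Gata1 library. These 11 include Tmem53 of this set, and Hist2h3c1, a histone gene, alone had a larger log2 ratio than Clvs2. The nearest below Clvs2 at this level were Itga2b (0.86), Dbil5 (0.81) and Wfdc17 (0.78), a likeness that rests, like those given below, on 2 values per gene.

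The paralog Clvs1, which encodes clavesin 1, was higher than Clvs2 in both libraries and nearly level between them, at 9.56 and 9.86 FPKM. Clvs2 therefore stood at 0.188 of the Clvs1 level in the AAV-Control library and at 0.492 of it in the AAV-Gata1 library. Among the 11 other measured Sec14 and CRAL-TRIO domain genes 4 were higher and 7 lower, with a median log2 ratio of −0.060. Their values ran from −0.13 (Atcay, the caytaxin gene) to 0.096 (Bnip2). Each was smaller in size than the log2 ratio of Clvs2, which was chosen for its large ratio. Of 22 clathrin coat and adaptor genes 17 were lower and 5 higher, with a median of −0.045, and the clathrin heavy chain gene Cltc stood at 154 and 147 FPKM. For comparison, the median over all named genes was −0.013, with 45.1% of them higher and 54.9% lower.

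The genes that overlap or flank Clvs2 were under 1 FPKM, too low to show whether they shared its difference. The lncRNA gene Gm15939, which overlaps Clvs2 by 439 bases, was at 0.0943 and 0.1002 FPKM. The muscle gene Trdn on 1 side was at 0.0162 and 0.00760 FPKM, and Sult3a2 on the other, listed as Gm4794, was at 0 in both libraries. The next measured gene on the Trdn side, Nkain2, which encodes a partner of the sodium pump, went the other way, from 20.5 to 13.1 FPKM (log2 ratio −0.61). The 5 measured genes before and the 5 after Clvs2 in the tables had a median log2 ratio of 0.0084, and the highest of them, Dse, was at 0.12. The tables run in genome order: 98.9% of 30304 adjacent pairs of annotated rows on a chromosome are in order of their start on GRCm38.p6.

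**Figure D1:**
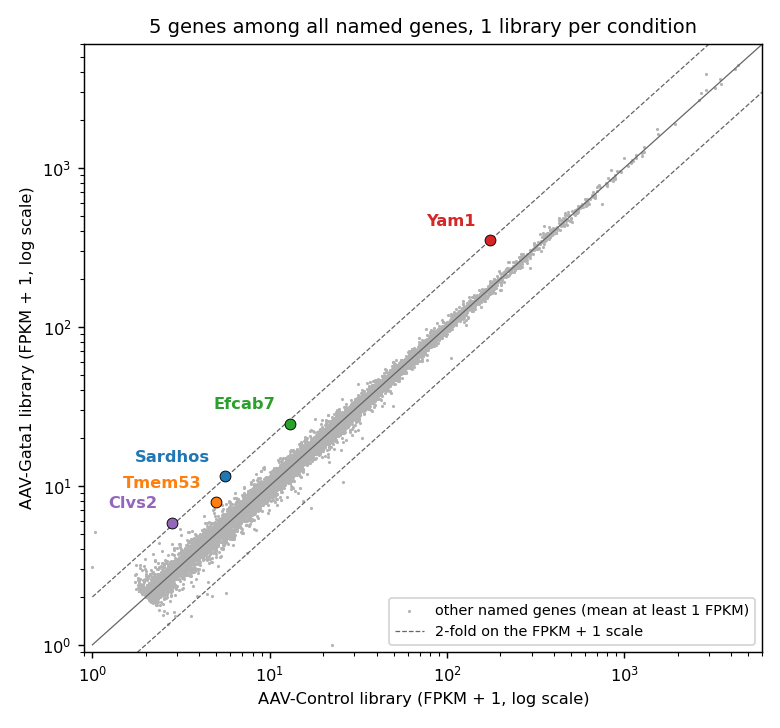
FPKM + 1 of 12229 named genes in the AAV-Control library (x axis, log scale) and the AAV-Gata1 library (y axis, log scale), with 1 point per gene, a line of equality and dashed lines at 2-fold. Clvs2, Sardhos and Yam1 lie just above the upper dashed line (log2 ratios 1.06, 1.04 and 1.00), and Efcab7 (0.91) and Tmem53 (0.66) lie below it.

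Efcab7, chosen like the others for its large ratio, was the gene of this set that lay in the middle of the expression range. It read 12.1 FPKM in the AAV-Control library and 23.5 FPKM in the AAV-Gata1 library, a ratio of 1.95 and a log2 ratio of 0.91. The gene moved from above 44.1% to above 66.6% of named genes. Of 5187 other named genes with a mean within 2-fold of its own, 0 were at least 1.5-fold higher, and 95% of them lay between log2 ratios of −0.24 and 0.20. The largest of these, and so the nearest to Efcab7, were Lars2, the gene of the mitochondrial leucyl-tRNA synthetase, at 0.55, the mitochondrial ribosome gene Mrpl47 at 0.52 and the transcription factor gene Cebpb at 0.51.

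The partners of Efcab7 at the cilium did not differ with it. Iqce, whose product binds EFCAB7, stood at 14.5 and 14.3 FPKM. Evc stood at 7.46 and 7.78 FPKM and Evc2 at 4.83 and 4.50 FPKM. Efcab7 was thus below Iqce in the AAV-Control library and above it in the AAV-Gata1 library. Of 18 other measured genes of the Hedgehog pathway 9 were higher and 9 lower, with a median log2 ratio of −0.0064. The receptor gene Ptch1, which is itself switched on by the pathway, was lowest at −0.13 (11.9 and 10.9 FPKM). The signal transducer gene Smo was at 39.3 and 42.0 FPKM, and the coreceptor gene Gas1 had the highest ratio, at 34.4 and 43.2 FPKM (log2 ratio 0.32). Gli1, another gene that the pathway switches on, was under the minimum, at 0.854 and 0.888 FPKM.

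Other EF-hand domain genes also lacked the difference. Of 10 measured relatives 4 were higher and 6 lower, at a median of −0.037. The lowest was Efcab4a, which encodes a regulator of calcium entry, at 4.68 and 3.67 FPKM (−0.28).

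The genes on either side of Efcab7 were level. Itgb3bp, a centromere protein gene that ends or starts 230 bases away, was at 5.68 and 5.89 FPKM. The phosphoglucomutase gene on the other side, 16663 bases away, is named Pgm1 in the annotation and Pgm2 in the tables; it was at 31.4 and 32.1 FPKM. The pseudogene Gm26425, which overlaps Efcab7 by 126 bases, was listed at 0 in both libraries. Over 10 measured neighbours the log2 ratios ran from −0.18 (Alg6) to 0.17 (Usp1).

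Tmem53 had the smallest difference of the set. It stood at 4.00 FPKM in the AAV-Control library and at 6.88 FPKM in the AAV-Gata1 library, a ratio of 1.72 and a log2 ratio of 0.66. This placed it at rank 17 among all named genes by log2 ratio and rank 4 among those that reached 5 FPKM in 1 of the libraries. Of 3765 other named genes at a like mean 3 had a larger log2 ratio: Clvs2 and Sardhos, which are of this set, and Wfdc17. These 3 are among the 5 that were at least 1.5-fold higher. Egfem1, at 2.17 and 3.89 FPKM, had the nearest log2 ratio (0.63), followed by Dnase1l1 (0.59) and the oxidase gene Nox1 (0.58).

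Genes of BMP and SMAD signalling, the pathway that TMEM53 is known to restrain, differed little. Of 24 other measured genes 17 were higher and 7 lower, at a median log2 ratio of 0.054, and their values ran from −0.12 to 0.20. Among all named genes 45.1% were higher, and the median was −0.013. Among the target genes of the pathway Id1 stood at 68.0 and 68.3 FPKM, Id2 at 182 and 199 FPKM, Id3 at 194 and 194 FPKM and Id4 at 204 and 216 FPKM. Smad7, an inhibitor that the pathway induces, was highest in the list, at 1.92 and 2.35 FPKM, followed by the BMP antagonist gene Nog at 4.66 and 5.46 FPKM. The inhibitor gene Smad6 was lowest, at 2.372 and 2.101 FPKM, before the protease gene Bmp1 at 15.04 and 13.89 FPKM. The shared SMAD gene Smad4 was at 34.3 and 33.4 FPKM.

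Nuclear envelope and lamina genes were split, with 11 higher and 11 lower of 22 and a median of −0.0046. The lowest was Syne1, a gene of the linker between nucleus and cytoskeleton, at 2.98 and 2.44 FPKM, and the highest was Sun2, which encodes its partner in the inner membrane, at 31.78 and 35.03 FPKM. Next to Tmem53 in the genome, Armh1 lies 34 bases away and is listed in the tables under its earlier names Gm1661 (1.96 and 1.63 FPKM) and 1700012C08Rik (1.13 and 0.969 FPKM). Rnf220, a ubiquitin ligase gene 2875 bases on the other side, was at 36.7 and 32.2 FPKM. These neighbours were lower in the AAV-Gata1 library while Tmem53 was higher, and the 10 nearest measured rows had a median log2 ratio of −0.11.

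**Figure D2:**
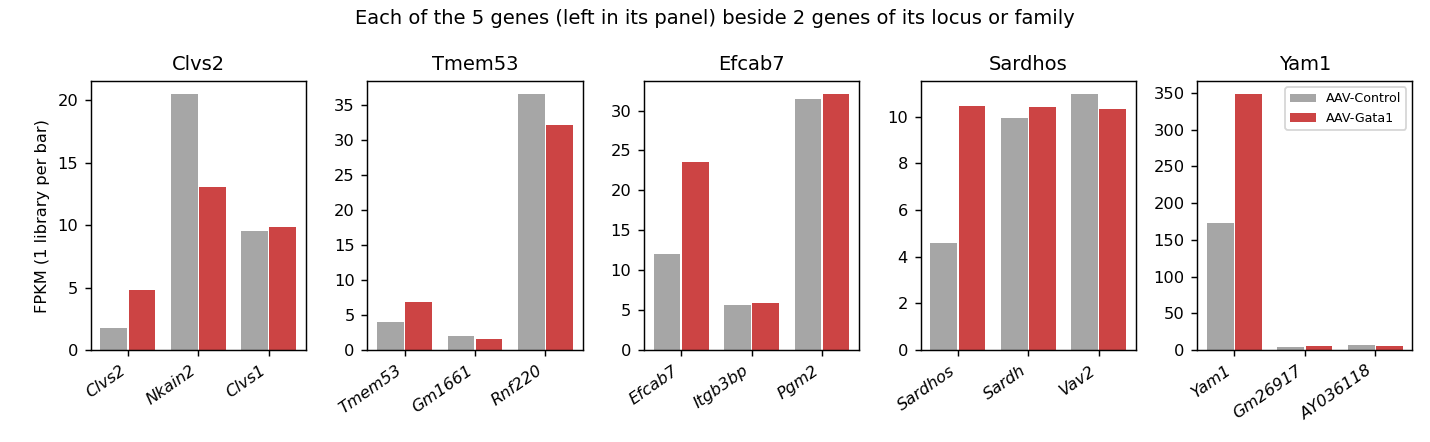
FPKM in the AAV-Control (grey) and AAV-Gata1 (red) libraries for each of the 5 genes and for 2 genes of its locus or family, with 1 library per bar, bars starting at 0 and a separate scale in each panel. Sardhos goes from 4.59 to 10.5 FPKM beside Sardh at 9.96 and 10.4 FPKM, and Efcab7 from 12.1 to 23.5 FPKM between 2 neighbours that are level.

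Sardhos stood at 4.59 FPKM in the AAV-Control library and at 10.5 FPKM in the AAV-Gata1 library, a ratio of 2.28 and a log2 ratio of 1.04. It had the largest log2 ratio of all named genes that reached 5 FPKM, and moved from above 19.0% to above 40.4% of named genes. None of 4410 other named genes of a like mean had a larger one, from which nothing is read since Sardhos was chosen for its ratio. Nearest to it was Tmem53, the gene described above, followed by Dnase1l1 (0.59) and Wdr17 (0.57).

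Sardh, the gene on the strand opposite to Sardhos, was level at 9.96 and 10.4 FPKM. The opposite-strand transcript was at 0.461 of the Sardh level in the AAV-Control library and at 1.01 of it in the AAV-Gata1 library. The libraries were made with a stranded kit, per the labels, but no source used here says whether fragments were counted by strand, so fragments of Sardh and Sardhos cannot be told apart with certainty. The enzymes of the sarcosine, choline and folate route, Sardh included, were near level. Of 20 measured genes 15 were higher and 5 lower, at a median log2 ratio of 0.019, where 45.1% of all named genes were higher. The lowest was Amt, of the glycine cleavage system, at 45.8 and 38.3 FPKM. Pipox, another enzyme that oxidises sarcosine, was at 6.35 and 6.43 FPKM.

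Around Sardhos, Vav2, which encodes an exchange factor for small GTPases, was at 10.98 and 10.35 FPKM in the next row. Of 10 measured rows around it 4 were higher and the median was −0.056. One of these, chosen after its values were seen, was the small nuclear RNA gene Gm25541, listed at 0 FPKM in the AAV-Control library and at 152 FPKM in the AAV-Gata1 library.

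Yam1 was by far the most abundant of the 5. It stood at 174 FPKM in the AAV-Control library and at 349 FPKM in the AAV-Gata1 library, a ratio of 2.01 and a log2 ratio of 1.00. In the AAV-Control library 381 named genes were higher and in the AAV-Gata1 library 171. It made up 0.0364% and 0.0731% of the summed FPKM. Highly expressed genes otherwise agreed closely between the libraries: of 474 named genes with a mean within 2-fold of that of Yam1, 0 were at least 1.5-fold higher and 95% lay between log2 ratios of −0.15 and 0.15. The nearest to Yam1 was the ribosomal protein gene Rpl39, at 350 and 428 FPKM (0.29), and the microglia gene Tyrobp (0.21) was also among the 3 nearest.

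Yy1, the gene of the factor for which Yam1 is named, was at 23.0 and 27.3 FPKM (log2 ratio 0.24), the highest value in its list. The other genes of that list, which holds chromatin partners of YY1, ran down to −0.13 (Ino80, a chromatin remodeller gene), with 5 higher and 7 lower of 12 with Yy1 included. Wnt7b, linked to Yam1 in muscle, was at 14.1 and 13.6 FPKM.

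The rows on either side of Yam1 in the tables are Gm26917 and AY036118. In RefSeq, AY036118 overlaps by 91 bases a pseudogene named Rn18s-rs5, a copy of ribosomal RNA sequence with the synonym Gm42418. Yam1 was not matched by symbol there, and whether its row counts that same sequence could not be settled, so its values may be those of the muscle noncoding RNA or of ribosomal RNA sequence. Gm26917 stood at 4.33 and 5.99 FPKM (log2 ratio 0.39) and AY036118 at 6.70 and 5.88 FPKM (−0.16), so Yam1 was 40.1 times Gm26917 in the AAV-Control library and 58.2 times in the AAV-Gata1 library. A list of 18 symbols chosen for ribosomal RNA sequence in or near them had 7 in the tables and 4 at 1 FPKM or more, of which 2 were higher and 2 lower. Beside the pair just given these were Lars2 (17.0 and 25.3 FPKM, 0.55) and Zc3h7a (40.0 and 34.2 FPKM, −0.22). Of the 3 others Gm15564 was at 0.142 and 0 FPKM, Gm26870 at 0 and 0.0582 FPKM and the 5S ribosomal RNA gene n-R5s211 at 0 in both. The tables hold 139 genes of 5S ribosomal RNA, of which 138 were listed at 0 in both libraries, and n-R5s202, named after its values were seen, at 0 and 261 FPKM. The part of ribosomal RNA fragments in the Yam1 values was not tested.

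Of 7 microRNA names listed for such sequence 3 were in the small RNA tables. miR-712-5p, cut from the spacer of the ribosomal RNA precursor, had 5 reads in the AAV-Control and 8 in the AAV-Gata1 library, a CPM ratio (reads scaled to the library total) of 1.98 with an exact Clopper-Pearson 95% counting interval of 0.571 to 7.69. The other arm, miR-712-3p, had 21 and 15 reads (ratio 0.883, interval 0.423 to 1.80). miR-714 had 0 and 23 reads, and the same interval for its ratio starts at 7.11; the count of 0 allows up to 3 reads (0.192 CPM) in the AAV-Control library. PCR copies are not separate molecules, so the intervals and this limit hold for counting error alone.

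**Figure D3:**
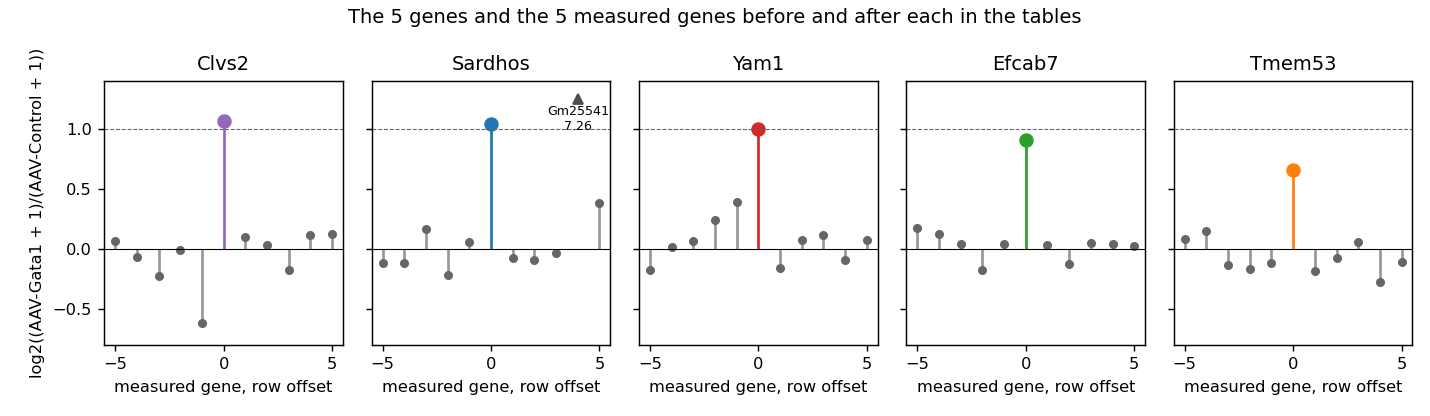
Log2 ratio (AAV-Gata1 over AAV-Control, 1 FPKM added) of each of the 5 genes (coloured, offset 0) and of the 5 genes before and after it in the tables that have a mean of at least 1 FPKM; the dashed line marks 2-fold and a triangle marks a value beyond the axis. Most neighbours lie near 0; furthest from it are Gm25541 (7.26) and Gm13421 (0.38) near Sardhos, Nkain2 (−0.61) beside Clvs2 and Gm26917 (0.39) beside Yam1.

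Set side by side, 3 of the 5 genes (Clvs2, Sardhos and Yam1) were at least 2-fold higher on the log2 scale with 1 FPKM added, where 0.0409% of the 12229 named genes were. All 5 were at least 1.5-fold higher, where 0.196% of named genes were. Both shares include the passing genes of this set and the delivered Gata1. Nothing is read from these counts, since the genes were chosen for this difference. Just inside the 2-fold limit stood Yam1 at 1.00, and just outside it Efcab7 at 0.91 and, with lower levels, the platelet integrin gene Itga2b at 0.86. Below Tmem53 among genes that reached 5 FPKM came Dnase1l1, at 3.27 and 5.44 FPKM (0.59). The order of the 5 depends on the constant added: with 5 FPKM in place of 1, Yam1 was first at 0.99 and Clvs2 was at 0.53, and 0 of the 5 passed 2-fold.

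The genes of the pathways and families around the 5 were close to level as a whole. Over 9 lists, 139 other measured genes were compared, of which 70 were higher and 69 lower, with a median log2 ratio of 0.00021. None of them (0 of 139) was 1.5-fold apart in either direction. Since only 0.425% of all named genes were, 139 genes are too few for this count to set the lists apart. The lowest was Efcab4a at −0.28 and the highest Gas1 at 0.32. No test was possible on these lists with 1 library per group.

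**Figure D4:**
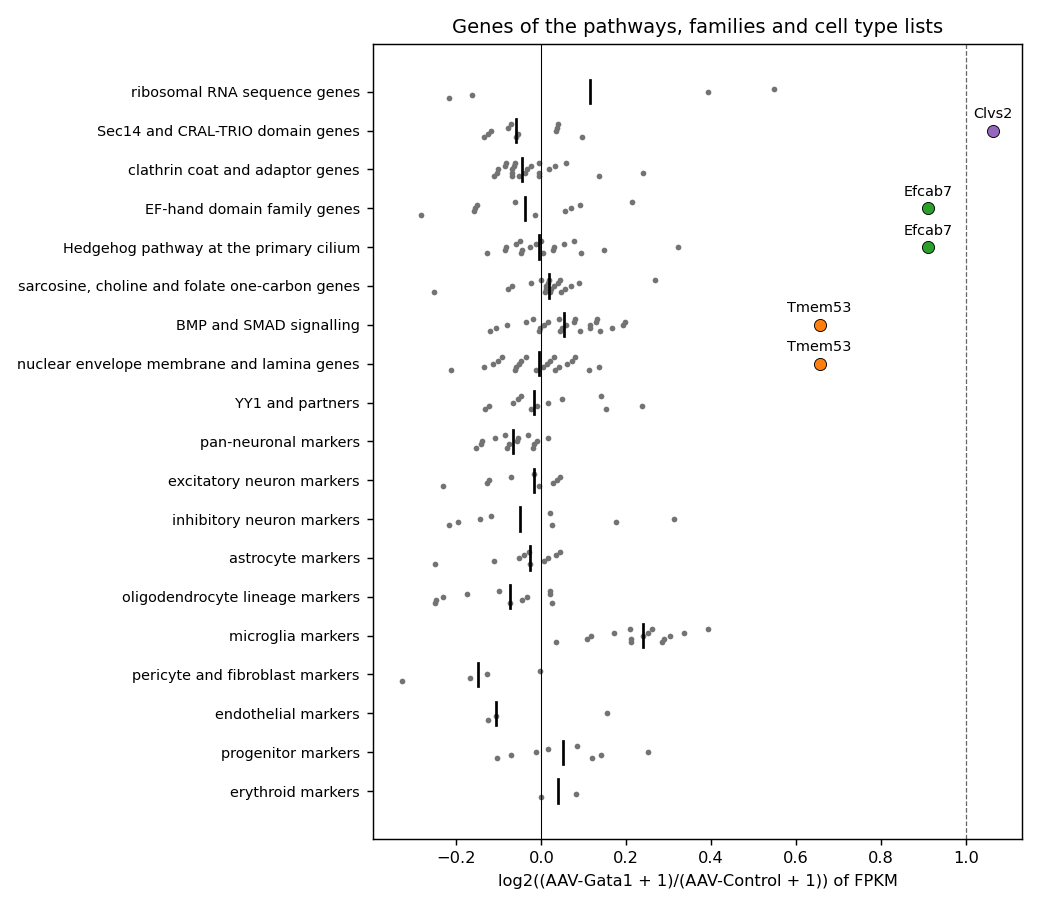
Log2 ratio (AAV-Gata1 over AAV-Control, 1 FPKM added) of each gene with a mean of at least 1 FPKM in the pathway, family and cell type lists, with 1 grey point per gene, a black bar at the median of each list without the 5 genes, and Clvs2, Efcab7 and Tmem53 in colour. The 3 coloured genes, chosen for a large ratio, lie at 0.66 to 1.06, to the right of every other gene of their own lists. Microglia markers lie between 0.035 and 0.39.

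Markers of neurons, the labelled cell type, were present together with those of other brain cells. Pan-neuronal markers summed to 1419 and 1375 FPKM in the AAV-Control and AAV-Gata1 libraries, excitatory neuron markers to 191 and 188, inhibitory neuron markers to 193 and 187, astrocyte markers to 2513 and 2502, oligodendrocyte lineage markers to 318 and 303, progenitor markers to 1550 and 1645, pericyte and fibroblast markers to 141 and 120 and endothelial markers to 11.6 and 11.8 FPKM. Among all named genes 54.9% were lower and 45.1% higher, with a median log2 ratio of −0.013. Of 14 measured pan-neuronal markers 13 were lower, and their median log2 ratio was −0.067. Microglia markers, of which 15 of 17 were measured, were higher in all 15, at a median of 0.24, and summed to 709 and 840 FPKM; the defining microglia genes P2ry12 (0.178 and 0.117 FPKM) and Tmem119 (0.0738 and 0.154 FPKM) were near 0. Of the erythroid markers 2 of 7 were measured, of the endothelial markers 3 of 8 and of the pericyte and fibroblast markers 4 of 9. The endothelial genes Cldn5 (0 and 0.0503 FPKM) and Cdh5 (0.00861 and 0 FPKM) were near 0. Some sums rest on few genes. Vim alone gave 1280 and 1357 FPKM of the progenitor sums, and Acta2 gave 76.4 and 60.7 FPKM of the pericyte and fibroblast sums. In bulk RNA more cells of a type and more RNA per cell cannot be told apart. Microglia RNA moved in the same direction as the 5 genes but by less, with 1.19 times the summed level, and its part in their values was not tested.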

How the data were processed

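mRNA values are FPKM as the authors deposited them, per the file headers, with 1 library per group. The builds mm9 and mm10 and tools including Cuffdiff 2.1.1 and TopHat2 2.1.1 are named, per the submitters' processing notes, without their roles. Of 40993 rows, 6 without a symbol were left out. Per symbol, the highest row by mean was used. Of 1283 genes under 0.1 FPKM in both libraries at most 43 had log2 ratios within 0.02 of one another; whole fragments were thus not recovered and the mRNA depth is unknown. Small RNA values were deposited as CPM by the authors (normalized counts, per the file headers). Of the values under 400 CPM 100% were whole multiples of 1 read within 0.0055 CPM, for 15632554 and 12644396 reads over all rows, which repeat reads of shared mature names. A count test was not run, since each group has 1 library.

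The ratio was log2((AAV-Gata1 + 1)/(AAV-Control + 1)), compared where the mean of both libraries reached 1 FPKM; a fold on this scale understates differences of low genes. Genes were named by rule: Gata1, the 5 genes, their neighbours, the 3 genes of nearest log2 ratio at a mean within 2-fold, those bordering the 5 in order, all direct partners and ribosomal RNA genes, and the extremes of the other lists, with further members chosen for their role after their values were seen. The 5 genes and the lists were chosen with earlier results of these data known. The gene table (RefSeq, GRCm38.p6) matched 3 of the 5 symbols and was used for names and neighbours, and promoter sequences were matched for 2. The counting rule was also run on simulated data, whose outcome is not given here, so nothing about the real values is read from it. Python 3.11.15, numpy 2.4.6, pandas 2.3.3 and scipy 1.17.1 were used. Some genes of the lists are not reported here.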

Additional observations from a re-analysis of the deposited data

How the results depend on the processing

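All 5 genes were higher in the AAV-Gata1 library under every setting tried. The settings were an added constant of 0.1 or 5 FPKM and centring on the median of named genes (−0.013). Rescaling to equal totals and summing all rows of a symbol were also tried. None of these could test the direction, for which the genes were chosen. An added constant cannot reverse it, each gene has 1 row, and centring and rescaling shift the values by little. The count of the 5 that passed 2-fold was 3. The same 3 passed under each of these settings except the constant of 5 FPKM, which left 0. At a limit of 1.5-fold all 5 passed. The count of named genes at least 2-fold higher was 5, with Clvs2, Sardhos, Yam1 and the delivered Gata1 among them. That count was 16 with a constant of 0.1 FPKM, 0 with 5 FPKM and 2 with a minimum mean of 5 FPKM. Yam1 passed the 2-fold limit by the smallest margin, at 1.00. No paired analysis was possible because each group has 1 library. Unknown mRNA depth leaves the counting error of these values unknown.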
